A study of Mus musculus with 12 samples.

Results

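Krt5, Krt14, Krt15, Trp63, Gata3, Cdh1, Epcam, Dsp and Esrp1 are genes of the surface ectoderm, the embryonic cell sheet that gives rise to epidermis, cornea, conjunctiva and lens, and of the epithelia that arise from it. They were chosen by name, and all 9 were found among the 13942 genes of a table of normalised counts from mouse retinal pigment epithelium (RPE), the pigmented sheet behind the neural retina. The 12 libraries came from C57BL/6J mice, with 3 from each of 4 groups: wild type (WT) at embryonic stage E15.5, Sox9.cKO (a conditional deletion of Sox9, called cKO here) at E15.5, WT at postnatal day 5 (P5) and Sox9.cKO at P5. No label names the Cre driver, the deleted exons or any pooling of animals, or says that replicates were separate animals, so p-values measure the spread between these samples, which may be technical. The value of a gene is a quantile-normalised count in which nothing lies under 50; a gene printed as at the floor has the value 50, and its true level may be anything below.

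The RPE and the neural retina derive from neuroectoderm, whereas cornea, conjunctiva and eyelid skin derive from surface ectoderm and lie at the front of the same eye. Stratified epithelia rest on a basal layer of cells whose filaments are built from type II keratin 5 paired with type I keratins 14 and 15. The transcription factor p63, made by Trp63, maintains that basal layer and switches on its keratins. E-cadherin (Cdh1), EpCAM (Epcam) and desmoplakin (Dsp) hold epithelial cells together, and ESRP1 (Esrp1) directs epithelial patterns of alternative splicing. The RPE is itself a simple epithelium, with keratins 8 and 18 as its usual filaments and P-cadherin (Cdh3) among its cadherins.

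The libraries carried RPE transcripts at both ages and transcripts of neighbouring tissues as well. Of 14 RPE markers in the table, 10 were above the floor in each E15.5 library, 14 in each P5 WT library and 13 in each P5 cKO library, and Best1 was not in the table. Photoreceptor markers (14 genes) summed to 700.0 to 732.0 at E15.5, which is close to the floor for all of them, and to between 3429 and 110218 at P5, the highest in WT replicate 3. Lens markers (12 genes) summed to 2142 to 9993 in WT libraries of P5, and in the cKO ones of that age to 9930 to 14305. At E15.5 they summed to 2042 to 2871 in WT and 2222 to 3105 in cKO. Skeletal muscle markers (14 genes) summed at E15.5 to 54734.5 to 99111 in WT and 53277 to 85396 in cKO. Their range at P5 was 15482 to 72052 in WT and 30445 to 78146 in cKO. The RPE markers summed at E15.5 to 32099 to 45458.5 in WT and 24908 to 40973 in cKO. Sums over different genes are not shares of tissue. The values of Sox9 did not follow the label, at 932 to 1156 in WT and 990.0 to 1034 in cKO at E15.5, and at 964 to 1500 in WT and 2136 to 2928 in cKO at P5, so cKO below means the libraries labelled cKO.

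All 9 genes fell between E15.5 and P5, in WT and in cKO libraries alike. In a limma model over the 12 libraries, each was called lower at P5 in WT, where 23.2% of all 13523 genes tested were called lower, and each in cKO, where 26.1% were (adjusted p under 0.05, Benjamini-Hochberg). The median log2 fold change of the 9 genes was -3.11 in WT and -3.41 in cKO, against -0.07 and -0.08 over all genes tested. In all 9 every P5 library of a genotype lay below every E15.5 library of it, a pattern found in 29.4% of genes tested in WT and 34.1% in cKO. The exact permutation p (two-sided) was 0.1 for each gene in each genotype, the smallest that 3 libraries against 3 allow, and 0.00216 for each over all 12 libraries, the smallest that 6 against 6 allow, where 22.8% of genes had no overlap with P5 lower. All 9 passed the filter for testing, being above the floor in 3 libraries or more. Apart from Dsp and Cdh1, which pass it on P5 libraries alone, they did so only through the E15.5 libraries where they are high. The count of 9 in 9 therefore describes them and supports nothing further.

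**Figure D1:**
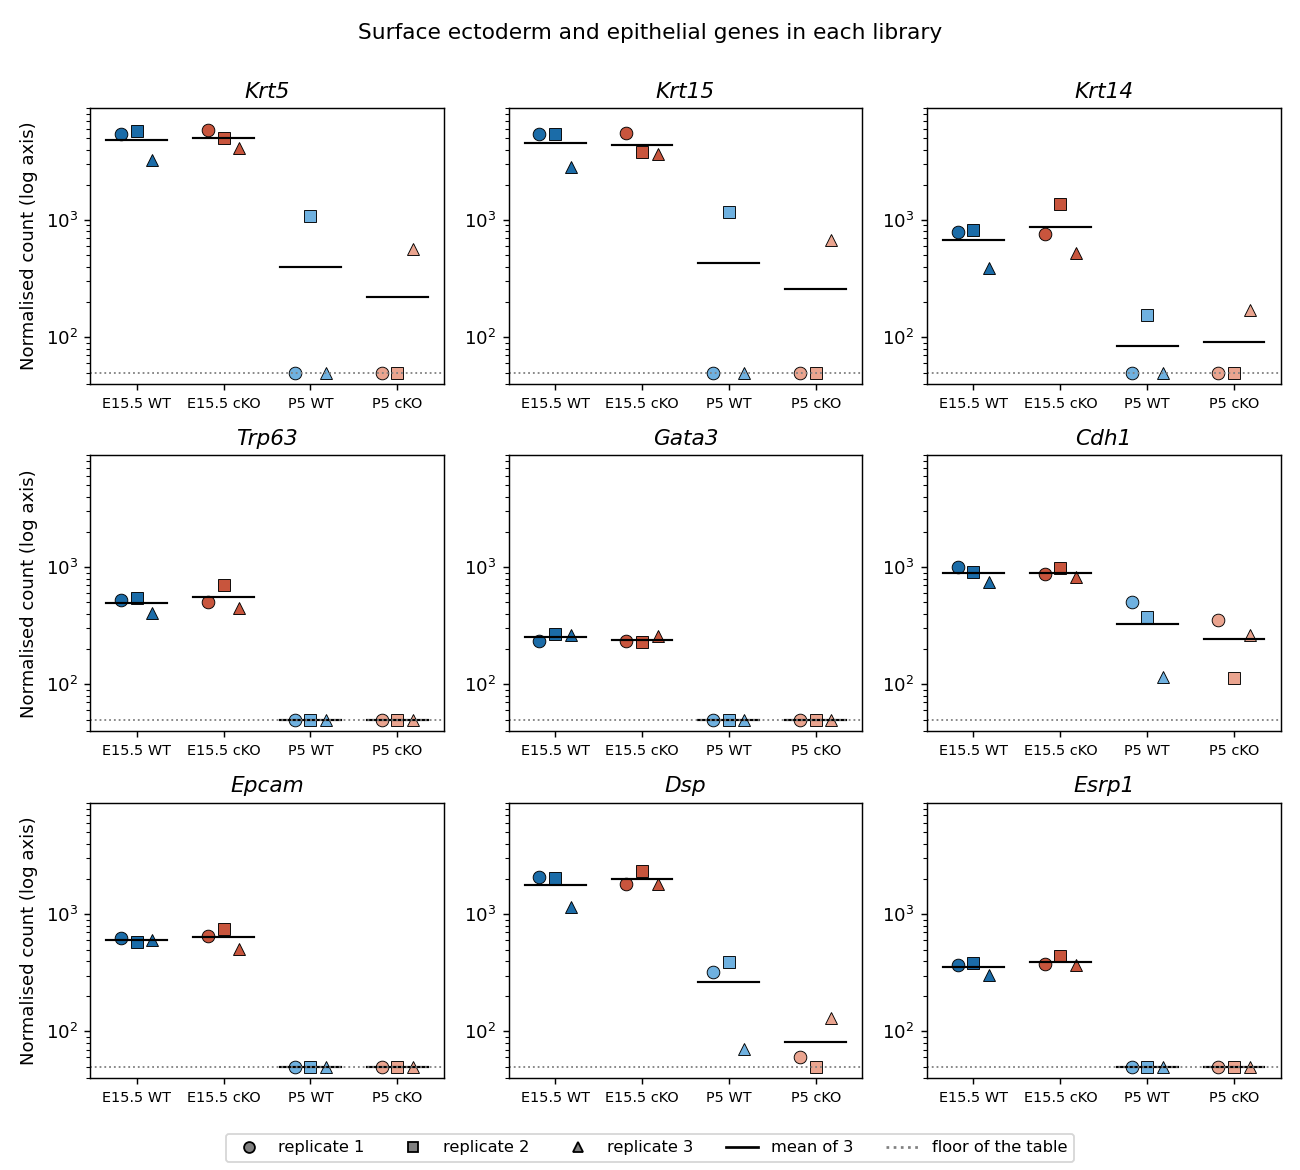
Normalised count of each of the 9 genes (log axis) in the 12 libraries, grouped by age and genotype on the x axis; symbols are replicates, black bars the mean of 3 libraries, and the dotted line the floor of 50. Every E15.5 library lies above every P5 library, and only Krt5, Krt15, Krt14, Dsp and Cdh1 leave the floor at P5.

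Krt5 and Krt15 had the highest counts of the 9 genes at E15.5. The mean of the third basal keratin, Krt14, was 776, below Dsp at 1880 and Cdh1 at 894. Krt5 (ENSMUSG00000061527, GRCm38 chr15:101707070-101712898, minus strand), the type II keratin of basal cells, was at 5459, 5718 and 3268 in E15.5 WT and at 5848, 5057 and 4106 in E15.5 cKO. At P5 it was at the floor in WT replicates 1 and 3 and in cKO replicates 1 and 2, but stood at 1093 in WT replicate 2 and at 566 in cKO replicate 3. Each of these values was below the lowest E15.5 library. Group means fell from 4815 ± 1346 to 398 ± 602 in WT (SD, n = 3), at least 12.1-fold, and from 5004 ± 872 to 222 ± 298 in cKO (SD, n = 3), at least 22.5-fold. The log2 fold changes were -5.04 ± 1.17 in WT and -5.44 ± 1.17 in cKO (SE), with adjusted p = 0.0066 and 0.00379 by limma. The size of the fall rests on the library left out: without P5 WT replicate 2 it was -6.52 in WT and without P5 WT replicate 1 or 3 it was -4.31, and without P5 cKO replicate 3 it was -6.60 in cKO.

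Krt15 (ENSMUSG00000054146, chr11:100131758-100135928, minus strand), a type I keratin of basal and stem-like cells of stratified epithelia, followed the same libraries. Its values were 5434, 5485 and 2842 in E15.5 WT and 5592, 3804 and 3644 in E15.5 cKO. At P5 only WT replicate 2, at 1179, and cKO replicate 3, at 672, were above the floor. The log2 fold change was -4.92 ± 1.22 in WT (SE, adjusted p = 0.00949 by limma) and -5.14 ± 1.22 in cKO (adjusted p = 0.00656). In WT it was -6.43 without P5 replicate 2 and -4.16 without P5 replicate 1 or 3, and in cKO -6.39 without P5 replicate 3 and -4.52 without P5 replicate 1 or 2. Krt14 (ENSMUSG00000045545, chr11:100203162-100207548, minus strand), the usual type I partner of keratin 5, was at 795, 825 and 391 in E15.5 WT and at 756, 1368 and 521 in E15.5 cKO. The same 2 libraries held it at P5, at 154 and 171, and the other 4 were at the floor. Its log2 fold change was -3.11 ± 0.60 in WT and -3.41 ± 0.60 in cKO (SE, adjusted p = 0.00237 and 0.00117 by limma). In words, the 3 basal keratins were above the floor in every E15.5 library and at P5 were seen in the same 2 libraries, 1 of each genotype.

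Shared sequence was compared among Krt5, Krt14, Krt15, Krt17 and Krt6a, and other keratins were not compared. Of the 50-base words in the protein-coding Krt5 transcript 6.98% occur in Krt6a too, and 3.34% of those of Krt14 occur in Krt17. None of the words of Krt14 occurs in Krt15 or Krt5. The counting of reads that match more than 1 gene is not stated for these data.

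The transcription factors were at the floor at P5 throughout. Trp63 (ENSMUSG00000022510, chr16:25683763-25892102, plus strand), the master regulator of stratified epithelium, was at 528, 542 and 409 in E15.5 WT and 507, 703 and 447 in E15.5 cKO, and at the floor in all 6 P5 libraries. It was thus at least 9.86-fold lower at P5 in WT and at least 11.1-fold lower in cKO (adjusted p = 1.8e-06 and 1.5e-06 by limma). With every P5 value at the floor the SD there was 0, which shrinks the spread that limma pools over the ages. These p-values therefore do not measure spread at P5 and cannot be ranked against those of genes above the floor. The same holds for Gata3, Epcam and Esrp1 below. Gata3 (ENSMUSG00000015619, chr2:9857078-9890034, minus strand), a zinc finger factor of epidermis, hair follicle and lens, was the most even of the 9 across embryonic libraries, at 234, 267 and 266 in WT and 233, 228 and 259 in cKO. It too was at the floor in all 6 P5 libraries, at least 5.12-fold lower in WT and 4.80-fold lower in cKO (adjusted p = 1.12e-06 and 1.5e-06 by limma). Annotated genes on the opposite strand overlap Gata3, Krt5, Trp63, Esrp1 and Dsp, and whether counting used strand is not stated for these data, so reads of the 2 strands there cannot be told apart. A protein-coding gene on the same strand (9230102O04Rik) also overlaps Gata3, and a processed pseudogene (Gm27005) overlaps Trp63.

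Of the adhesion genes, 1 was at the floor at P5 and 2 were above it in most libraries. Epcam (ENSMUSG00000045394, chr17:87635979-87651129, plus strand), a membrane glycoprotein of epithelial progenitors and simple epithelia, was at 629, 577 and 598 in E15.5 WT and 657, 749 and 504 in E15.5 cKO. All 6 P5 libraries were at the floor, at least 12.03-fold lower in WT and 12.7-fold lower in cKO (adjusted p = 4.32e-07 and 4.03e-07 by limma). Dsp (ENSMUSG00000054889, chr13:38151294-38198577, plus strand), which anchors keratin filaments to desmosomes, was at 2079, 2061 and 1155 in E15.5 WT and 1818, 2346 and 1820 in E15.5 cKO. At P5 it was at 324, 392 and 71.3 in WT and at 61.1, the floor and 131 in cKO. The log2 fold change was -3.02 ± 0.58 in WT and -4.73 ± 0.58 in cKO (SE, adjusted p = 0.0023 and 0.000145 by limma). Without P5 WT replicate 3 the value in WT was -2.25.

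Cdh1 (ENSMUSG00000000303, chr8:106603351-106670246, plus strand), the cadherin of adherens junctions in most epithelia, changed least and was above the floor in all 12 libraries. Its values were 998, 917 and 747 in E15.5 WT and 880, 994 and 827 in E15.5 cKO, and at P5 they were 502, 374 and 115 in WT and 356, 113 and 264 in cKO. The log2 fold change was -1.66 ± 0.51 in WT (SE, adjusted p = 0.0268 by limma) and -2.03 ± 0.51 in cKO (adjusted p = 0.00919). Without P5 WT replicate 3 the value in WT was -1.02. The call in WT was lost without any of the 3 E15.5 WT libraries (adjusted p = 0.0547 to 0.0793, lowest without replicate 3 and highest without replicate 1) and in a fit of the 6 WT libraries alone (adjusted p = 0.0665). The P5 libraries lowest in Cdh1, WT replicate 3 and cKO replicate 2, were those highest in summed photoreceptor markers, at 110218 and 54613 against 3429 to 24876 in the other 4. The part of photoreceptor RNA in the level of Cdh1 was not tested.

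Esrp1 (ENSMUSG00000040728, chr4:11331933-11386783, minus strand), the epithelial splicing regulator, was at 373, 382 and 302 in E15.5 WT and 373, 438 and 371 in E15.5 cKO, and at the floor in all 6 P5 libraries. It was at least 7.05-fold lower at P5 in WT and 7.88-fold lower in cKO (adjusted p = 8.31e-07 and 5.5e-07 by limma). Esrp1, Trp63, Gata3 and Epcam belong to the 184 genes, 1.36% of those tested, that were above the floor in all E15.5 libraries and at it in all P5 libraries. In bulk RNA, fewer cells of a type and less RNA per cell cannot be told apart for any of these falls.

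Per kilobase of exon, the E15.5 levels fell into 3 steps. Krt15 at 2528 ± 669 and Krt5 at 2235 ± 464 normalised counts per kb (SD, n = 6) did not differ beyond their spread. Next came Krt14 at 441 ± 192, whose libraries overlapped those of Epcam at 282 ± 37.5 (both SD, n = 6). Cdh1 at 195 ± 21.3 and Dsp at 195 ± 42.0 followed at equal levels (SD, n = 6). The regulators were lowest and alike within their spread, with Gata3 at 62.3 ± 4.50, Trp63 at 62.3 ± 12.2 and Esrp1 at 59.2 ± 6.84 per kb (SD, n = 6). Exon lengths are the union of all GENCODE exons of a gene, so a gene with long exons that are little used has its level understated.

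The 9 genes differed in their spread among the embryonic libraries. The highest E15.5 library exceeded the lowest 3.50-fold for Krt14, 2.03-fold for Dsp, 1.97-fold for Krt15, 1.79-fold for Krt5 and 1.72-fold for Trp63. The ratio was 1.49 for Epcam, 1.45 for Esrp1, 1.34 for Cdh1 and 1.17 for Gata3. WT replicate 3 was the lowest E15.5 library for 7 of the 9 genes, Epcam and Gata3 being the others. Gata3 was lowest in cKO replicate 2. Over the 6 E15.5 libraries its Pearson r (log2 values) with each other gene of the 9 was negative, from -0.77 to -0.36. These were the 8 negative values among 36 pairs. They rest on the 1.17-fold range of Gata3, and no p is attached. The cKO replicate 2 library was the highest for Krt14, Trp63, Epcam, Esrp1 and Dsp, and it also stood apart in genes outside the 9. Krt17, a keratin of periderm, hair follicle and injured epidermis, was at 2098 there and at 52.1 to 135 in the other E15.5 libraries, and the desmosomal cadherin Dsc3 was at 657 there against 176 to 238. That library was not the highest for Krt5 and Krt15, and its ratio of Krt5 to Krt14 was 3.70, against 6.87 to 8.35 in the other E15.5 libraries. This is 1 library singled out after its values were seen, and quantile normalisation does not keep ratios exactly.

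In the P5 libraries that held basal keratins, Trp63, Epcam, Esrp1 and Gata3 were at the floor. Relative to the E15.5 mean of its own genotype, P5 WT replicate 2 held 22.7% of Krt5, 25.7% of Krt15, 23.0% of Krt14 and 22.2% of Dsp. The same library was at the floor for Trp63, Epcam and Esrp1, which allows at most 10.1%, 8.31% and 14.2% of their E15.5 means. Dsp was not confined to the libraries with keratins, since P5 WT replicate 1, at the floor for the keratins, held 18.3% of it. Cdh1 was at 42.1% in P5 WT replicate 2 and at 56.6% in P5 WT replicate 1. In cKO replicates 1 and 2 of P5, Dsp was at 3.06% and at most 2.51%. P5 cKO replicate 3 held 11.3% of Krt5, 15.47% of Krt15, 19.4% of Krt14 and 6.56% of Dsp, and its bounds for Trp63, Epcam and Esrp1 were 9.05%, 7.85% and 12.7%, the last above its share of Krt5. Krt5 was 7.19 to 11.5 times Trp63, 5.46 to 9.90 times Epcam and 10.8 to 15.7 times Esrp1 across the 6 E15.5 libraries. In P5 WT replicate 2 it was at least 21.9 times each of them, above every embryonic library. In P5 cKO replicate 3 it was at least 11.3 times each, above the embryonic range for Epcam, but for Trp63 and Esrp1 that bound lies within the range. For Gata3 the floor is too close to the embryonic level to tell. The ratio of Krt5 to Krt15, 1.005 to 1.33 at E15.5, was 0.927 and 0.842 in these 2 libraries. These are ratios in single libraries with no replicate check, and quantile normalisation does not keep ratios exactly.

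**Figure D2:**
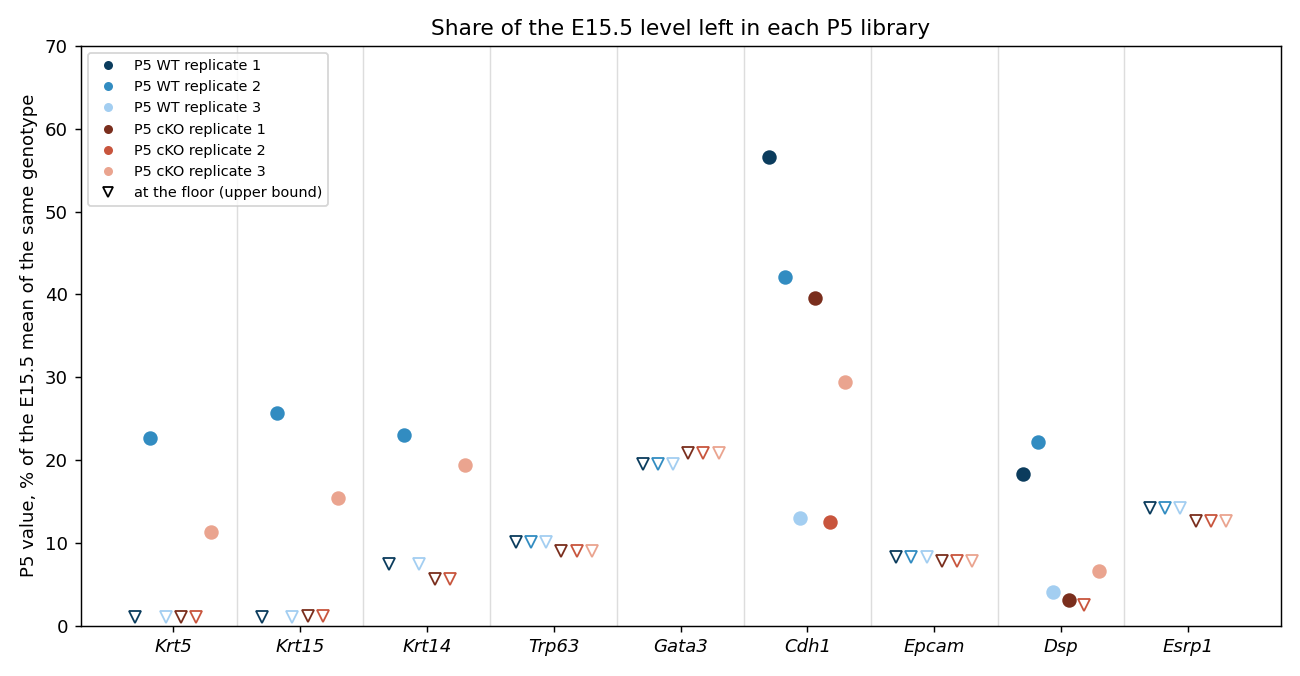
P5 value of each of the 9 genes as a percent of the E15.5 mean of the same genotype (linear y axis), by P5 library; open triangles are values at the floor and mark upper bounds. The keratins stand above their bounds in WT replicate 2 and cKO replicate 3 alone, at 11.3% to 25.7%, while Cdh1 keeps 12.5% to 56.6%.

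The genes whose pattern over the 12 libraries was most like that of a given gene were taken for Krt5, Epcam and Gata3. The 5 genes outside the 9 with the highest Pearson r to Krt5 (log2 values, 12 libraries) were Adh1 (0.990), the keratin Krt19 (0.990), the calmodulin-like Calml3 (0.984), the 14-3-3 protein Sfn (0.968) and Nxn (0.963). The r of their deviations from the group means was 0.878 to 0.979. Those deviations are part of the r by which the genes were picked, so this is no separate check. Krt5 itself varied most at P5, at 1093 in WT replicate 2, 566 in cKO replicate 3 and the floor in the other 4 libraries. For Epcam the 5 closest were Pitx1, Slitrk1, Pkp3, Edaradd and Fermt1 (r of 0.995 to 0.998), with deviations that were less alike (-0.10 to 0.71). For Gata3 they were Dmrta2, Edaradd, Slc14a1, Msc and Pitx1 (r of 0.996 to 0.998, deviations -0.13 to 0.63). All these genes share the libraries and the step between ages, which alone gives a high r, and no p is attached.

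Promoters of 3 genes are shown, since these genes fell together but to different remainders: Krt5 was left in 2 P5 libraries, Dsp in 5 and Epcam in none. RefSeq windows (GRCm38.p6) were found for 5 of the 9 genes, and those of Krt14 and Gata3 lie 1518 and 11434 bases from the 5′ end annotated in GENCODE. Each line gives the 250 bases before the start site, 5′ to 3′ on the gene's strand, for Krt5 at chr15:101712906-101713155 (minus), Epcam at chr17:87635729-87635978 (plus) and Dsp at chr13:38151044-38151293 (plus). Capitals mark matches on either strand to any of 4 motifs. The E-box of the SNAI and ZEB repressors was searched as CAGGTG. The GC box of SP1 was searched as GGGCGG. The AP-2 motif was searched as GCCNNNGGC, and a TATA-like element as ATAAAA.
Krt5: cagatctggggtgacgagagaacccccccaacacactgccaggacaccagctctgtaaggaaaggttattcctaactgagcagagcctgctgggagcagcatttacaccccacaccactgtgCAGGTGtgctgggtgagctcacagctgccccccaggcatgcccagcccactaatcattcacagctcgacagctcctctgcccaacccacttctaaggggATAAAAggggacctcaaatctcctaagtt
Epcam: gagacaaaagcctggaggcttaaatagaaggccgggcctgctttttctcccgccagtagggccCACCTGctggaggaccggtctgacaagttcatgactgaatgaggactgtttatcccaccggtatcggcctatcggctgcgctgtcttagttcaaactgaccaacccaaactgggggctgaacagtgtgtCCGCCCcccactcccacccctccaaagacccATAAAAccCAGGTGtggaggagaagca
Dsp: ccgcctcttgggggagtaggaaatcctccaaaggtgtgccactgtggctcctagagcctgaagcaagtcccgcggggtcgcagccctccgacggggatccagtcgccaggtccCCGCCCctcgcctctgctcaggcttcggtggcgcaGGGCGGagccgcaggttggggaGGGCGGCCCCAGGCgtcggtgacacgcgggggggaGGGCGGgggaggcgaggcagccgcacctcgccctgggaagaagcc
Krt5 and Epcam have a TATA-like match close to the start site, beginning 29 bases before it in Krt5, and Dsp has none. Dsp has 4 GC boxes, Epcam 1 and Krt5 none. CAGGTG occurs 2 times in Epcam and 1 time in Krt5, and the only GCCNNNGGC match, in Dsp, overlaps a GC box. Of 32851 RefSeq windows of this length, 17.2% hold CAGGTG, 32.7% GGGCGG, 13.7% GCCNNNGGC and 17.0% ATAAAA. A match is a run of letters and says nothing of whether a factor bound there.

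No difference between genotypes was called in these genes at either age. At E15.5, none of the 9 was called by limma between cKO and WT (0 at an unadjusted p under 0.05, and 0.00739% of all genes called). The groups overlapped in all 9, whereas 5.1% of genes tested had groups that did not. Log2 fold changes, cKO minus WT, ran from -0.09 ± 0.12 for Gata3 to 0.36 ± 0.60 for Krt14 (SE), each with an adjusted p of 1. The 95% intervals rest on a spread pooled over both ages. They were narrow for Gata3 (-0.35 to 0.17), Epcam (-0.27 to 0.39), Esrp1 (-0.13 to 0.46) and Trp63 (-0.25 to 0.54), which have no spread at P5 because all 6 libraries were at the floor. They were wide for Krt5 (-2.49 to 2.66) and Krt15 (-2.74 to 2.66), whose P5 libraries differed widely. With embryonic libraries only, 6 in all, the SE of Krt5 was 0.27 in place of 1.17 and that of Trp63 0.21 in place of 0.18, and again none was called.

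At P5 none of the 9 was called between genotypes by limma (1 at an unadjusted p under 0.05, and 0.244% of all genes called). The groups overlapped in all 9, against 6.18% of genes tested whose groups did not. Trp63, Epcam, Esrp1 and Gata3 were at the floor in every library, so a difference was not detectable. Dsp was the gene with the unadjusted p under 0.05, with 262 ± 169 for WT against 80.6 ± 43.8 for cKO (SD, n = 3), with a log2 fold change of -1.49 ± 0.58 (SE, 95% interval -2.76 to -0.22, adjusted p = 0.567 by limma, exact permutation p not below 0.2). The groups overlapped because WT replicate 3, at 71.3, lay below cKO replicate 3, at 131. Without WT replicate 3 the log2 fold change of Dsp was -2.26 ± 0.38 (SE) with an adjusted p of 0.0326, without cKO replicate 3 it was -1.90 ± 0.61 with 0.806, and with library weights -2.72 ± 0.47 with 0.0311. Cdh1 differed by -0.34 ± 0.51 (SE, 95% interval -1.48 to 0.79) and Krt5 by -0.32 ± 1.17 (-2.89 to 2.26). For Krt5 the sign turned to 1.16 without P5 WT replicate 2, as it did for Krt15 at 1.24.

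The fall with age was not shown to differ between genotypes for any of the 9 (0 called for the interaction by limma, 0 at an unadjusted p under 0.05, and 0.0592% of all genes called). The interaction of Dsp was -1.70 ± 0.81 and that of Krt5 -0.40 ± 1.65 (log2, SE, adjusted p = 0.999988 for each); with library weights they were -2.89 and -3.82, neither called.

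**Figure D3:**
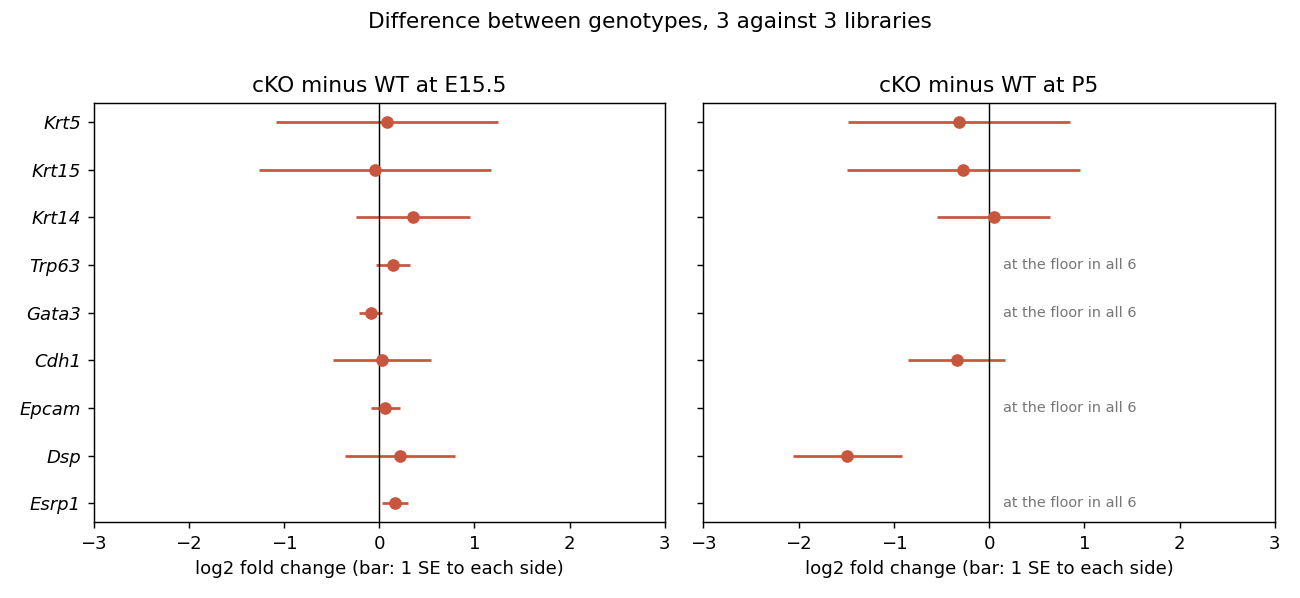
Log2 fold change between genotypes (cKO minus WT, x axis; bars 1 SE to each side) for the 9 genes at E15.5 and at P5, 3 libraries against 3. Points lie within -0.09 to 0.36 at E15.5, and Dsp at -1.49 lies farthest from 0 at P5; 4 genes at the floor in all P5 libraries have no point.

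Other epithelial genes, in lists compiled by function, fell as well, with clear exceptions. Averaged over genotypes, 33.6% of all genes tested were called lower at P5 and 23.7% higher by limma, with a median log2 fold change of -0.08. All 9 genes described above were called lower in that contrast (median -3.34). Of 11 other desmosome genes tested, 8 fell and none rose (median -2.12), among them the plakin Ppl (-3.29 ± 0.26), and the cadherins Dsc2 (-2.85 ± 0.27) and Dsg2 (-2.70 ± 0.16, all log2 with SE). Jup, the plakoglobin shared with adherens junctions, was at 0.25 ± 0.14 and Perp at 0.46 ± 0.29 (log2, SE), neither called.

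Of 11 basal keratin and hemidesmosome genes 5 fell (median -0.98), among them collagen XVII (Col17a1, -3.61 ± 0.46) and the laminin chain Lamb3 (-1.75 ± 0.18, log2 with SE). The integrin and plakin genes Itga6, Itgb4, Dst and Plec were not called, with log2 fold changes from -0.73 to 0.10. Of 13 epithelial transcription factors 10 fell and none rose (median -1.23). They include the homeobox gene Barx2 (-3.25 ± 0.32) and Tfap2b (-2.20 ± 0.58, log2 with SE). Tfap2b was called in cKO (adjusted p = 0.034 by limma) but not in WT (adjusted p = 0.086). In P5 WT replicate 3, the library highest in summed photoreceptor markers, it was at 3106.5, within its E15.5 range of 2549 to 3391. The part of photoreceptor RNA in its level was not tested. Grhl2, a grainyhead factor that activates Cdh1, was at 202 to 256 in the E15.5 libraries and at the floor in all 6 P5 libraries. Esrp2, the paralog of Esrp1, fell from 364 ± 51.2 to 61.4 ± 16.8 (SD, n = 6).

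Among 16 epithelial membrane and protease genes 12 fell and 1 rose (median -1.18). Claudin-4 (Cldn4) fell by 2.81 ± 0.11 (log2, SE). Claudin-1 (Cldn1) rose, from 349 ± 70.9 at E15.5 to 2400 ± 1203 at P5 (SD, n = 6, log2 fold change 2.60 ± 0.30, SE). P-cadherin (Cdh3) was at 1638 ± 244 and 2401 ± 881 (SD, n = 6) and was not called (0.46 ± 0.25, adjusted p = 0.14 by limma). The simple keratins split: Krt19 (-3.78 ± 0.44) and Krt7 (-2.50 ± 0.20) fell, whereas the RPE keratins Krt8 and Krt18 rose by 1.76 ± 0.30 and 1.73 ± 0.27 (log2 with SE). Krt18 went from 2133 ± 338 to 8004 ± 4168 (SD, n = 6). Of 7 genes of differentiated epidermis, cornea and conjunctiva that were tested, 4 fell (median -0.76), with the corneal keratin Krt12 at 50.9 to 274 at E15.5 and at the floor in all P5 libraries. Another 8 of that list, among them Lor, Ivl and Flg of the cornified layer, were not in the table. Each list's call count should be read against the 33.6% of all genes. At P5, Dsg2 and Lamb3 were at the floor in all 6 libraries, Cldn4 in 5, and Ppl, Dsc2 and Krt19 in 4. Their falls are therefore lower bounds. For Dsg2, Lamb3 and Cldn4 the SE is also small because P5 had little or no spread.

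**Figure D4:**
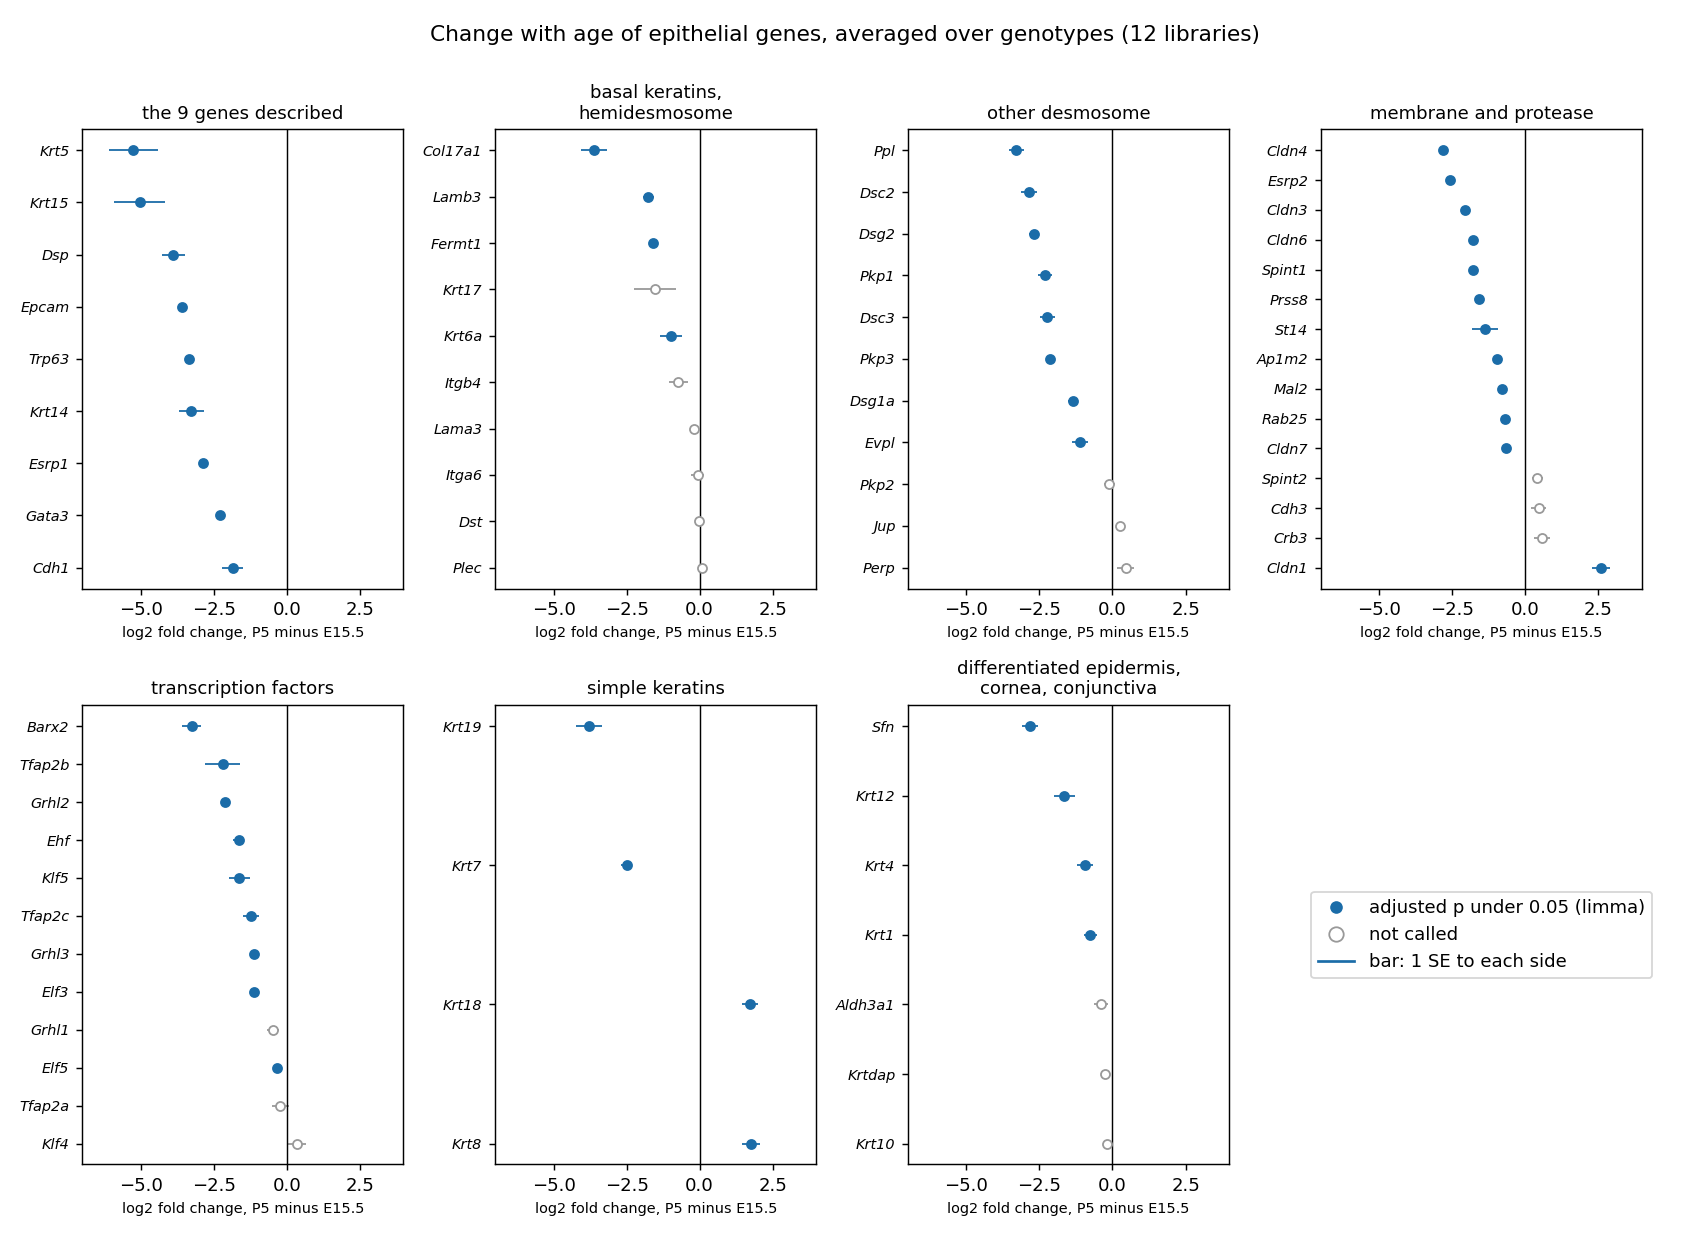
Log2 fold change from E15.5 to P5 averaged over genotypes (x axis; bars 1 SE to each side) for the 9 genes and 6 further epithelial lists, 1 row per gene, with 3 genes of the lists not drawn; filled points have an adjusted p under 0.05 by limma. Most genes drawn lie left of 0, while Krt8, Krt18 and Cldn1 lie right of it between 1.73 and 2.60.

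Lists of other tissues changed between the ages as well, averaged over genotypes. The counts are of genes called by limma, where 33.6% of all genes tested fell and 23.7% rose. Of 11 mesenchymal counterparts, genes that oppose or replace the epithelial state, 8 fell and none rose (median -0.71), led by Twist2 (-3.20 ± 0.12), Twist1 (-2.08 ± 0.17) and the Cdh1 repressor Snai2 (-1.94 ± 0.28, log2 with SE). The Cdh1 repressor Zeb1 fell too (-0.55 ± 0.13), and Zeb2 was not called (0.10 ± 0.11). Twist2 was at the floor in 4 P5 libraries, so its fall is a lower bound. Of 14 skeletal muscle markers 7 fell, 1 rose and 6 were not called. Of 14 RPE markers tested 13 rose and none fell, and of 12 lens markers 11 rose. Of 13 photoreceptor markers 12 rose, of 9 endothelial markers 8 rose and of 8 macrophage markers 5 rose. The median log2 fold change of lens markers was 0.83 in WT and 1.99 in cKO, against -0.07 and -0.08 over all genes tested. The rise was not shown to differ between genotypes. For the interaction of genotype and age, 0 of 12 lens markers were called by limma, and 0.0592% of all genes tested. Summed lens markers overlapped at P5, with WT replicate 2 at 9993 and cKO replicate 2 at 9930. WT replicate 3 was the lowest, at 2142. The part of a changed tissue mixture in the fall of the 9 genes was not tested.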

How the data were processed

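RNA of RPE from 12 libraries, 4 groups of 3 assigned by title, was aligned with TopHat2 2.0.10 to mm10 and counted with HTSeq, per the submitters' processing notes. The values deposited by the authors are a signal, named in the table's title as quantile-normalised counts with a floor of 50. All 12 columns hold the same sorted values (median 367.4, 1376 genes or 9.87% at the floor), so depth is unknown and no counting interval can be given. Values were taken as log2(value + 1), and genes above the floor in at least 3 libraries (13523 of 13942) entered a limma model (version 3.58.1, under R 4.3.3) of 1 mean per group, a mean-variance trend and 10.6 degrees of freedom. P-values were adjusted by Benjamini-Hochberg over all genes tested, two-sided, and called under 0.05. The model was run on simulated data in which genes with means well above the floor were changed, by less than most falls reported here. Groups lying wholly at the floor were not set up in it, so it does not cover them. A fold change between a group wholly above the floor and one with values at it is a lower bound; where both groups hold values at the floor, as for the basal keratins between genotypes at P5, it bounds nothing. Positions are from GENCODE M21.

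The 9 genes and the gene lists were chosen with earlier results of these data known. Named beside the 9 genes are up to 3 members per list, called ones and then the largest changes with age first, and the 5 genes most like Krt5, Epcam and Gata3 by Pearson r, passing over predicted genes; 3 genes that the rule names are not reported here. Genes named beyond this rule (such as Jup, Perp, Krt17, Dsc3, Krt18, Grhl2, Esrp2, Cdh3, Zeb1 and Zeb2), and libraries singled out, were chosen after their values were seen. Alternatives were another pseudocount (50), other filters, library weights, no trend, a replicate block, only the 6 libraries compared, and leaving out each library.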

Additional observations from a re-analysis of the deposited data

Results flagged for a closer look

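Of the 9 genes none differed between genotypes in its change with age by the test of that difference. Among the other genes that the rule names, 2 RPE markers did, both by limma's interaction test. The change of Ttr, the carrier of thyroid hormone and retinol-binding protein, from E15.5 to P5 was 3.87 ± 0.41 higher in cKO than in WT (log2, SE, adjusted p = 0.00544). This larger rise began from a lower embryonic level. Ttr ranged from 85.3 to 110 among the E15.5 cKO libraries, and from 1454 to 1602 among the E15.5 WT ones. By P5 the genotypes overlapped, with cKO libraries spanning 37268 to 77449 and WT libraries 42122 to 77449. The change of Rgr, an opsin of the RPE, was lower in cKO by -6.02 ± 0.45 (log2, SE, adjusted p = 0.000666), Rgr being at the floor in all 6 E15.5 libraries.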

How the results depend on the processing

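The count of genes called lower with age stayed at 9 of 9 in each genotype and averaged over genotypes under every alternative run, except for 8 in WT without an E15.5 WT library or in the 6 WT libraries alone, where Cdh1 was lost (8 to 9 over the libraries left out). With the replicate number as a block, 9, 9 and 9 were called with age and 0 for genotype at either age and for the interaction, as without it. No label says that equal numbers pair the samples. The r of deviations from group means between same-numbered libraries was -0.34 to 0.78 over 12 pairs, 5 of them over 0.1. Unlike numbers could also give a high r, 0.71 for P5 WT replicate 3 with P5 cKO replicate 2, so these values cannot decide on pairing. The count called for genotype at P5 was 1 in place of 0, Dsp, with library weights and without P5 WT replicate 3 (0 to 1 over the libraries left out). Library weights, whose estimation stopped short of its tolerance, also moved the fall of Krt5 in WT from -5.04 to -2.63 and of Krt15 from -4.92 to -2.46. They moved Krt14 and Dsp in WT to -2.36 and -2.32, and Krt5, Krt14 and Krt15 in cKO to -6.45, -4.17 and -6.16. For cKO minus WT they turned Krt5 at E15.5 to -0.0399 and Krt14 at P5 to -1.38, and moved Krt5, Krt15 and Cdh1 at P5 to -3.86, -3.95 and -1.11, none of these called. The interactions of Krt5, Krt14, Krt15, Dsp and Cdh1 became -3.82, -1.81, -3.70, -2.89 and -1.14 (none called, Dsp at an adjusted p of 0.0505). A pseudocount of 50 shrinks changes near the floor by construction, and Epcam fell by 2.70 in place of 3.56 in WT. Leaving out 1 library turned the sign of uncalled log2 fold changes with these ranges: for cKO minus WT at E15.5 Krt5 -0.17 to 0.23, Krt14 -0.0181 to 0.68, Krt15 -0.36 to 0.12, Trp63 -0.0386 to 0.29, Epcam -0.063 to 0.22, Dsp -0.0642 to 0.36, Cdh1 -0.0916 to 0.12; at P5 Krt5 -1.47 to 1.16, Krt14 -0.54 to 0.58, Krt15 -1.51 to 1.24, Cdh1 -0.98 to 0.14; for the interaction Krt5 -1.56 to 1.07, Krt14 -0.89 to 0.23, Krt15 -1.47 to 1.28, Trp63 -0.29 to 0.0386, Epcam -0.22 to 0.063, Cdh1 -1.003 to 0.11. The floor limits all P5 values, and the unknown depth leaves their counting error unknown.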

Other observations

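The 2 P5 libraries that held basal keratins, WT replicate 2 and cKO replicate 3, had other genes above the floor in common too. Of all genes tested 18, or 0.133%, were above the floor in every E15.5 library and, at P5, in these 2 libraries alone. Krt5, Krt14 and Krt15 are 3 of them, and the libraries were singled out by the same keratins, so their membership is no finding. The other named genes were the keratins Krt19, Krt4 and Krt6a, the desmosomal genes Dsc2, Pkp1 and Ppl, the cornified envelope genes Scel, Tgm1 and Asprv1, the water and glycerol channel Aqp3, and Calml3, Trim29, F2rl1 and Tmc4. Krt19 was at 278 in WT replicate 2 and 148 in cKO replicate 3. Krt4, a keratin of mucosal epithelia including the conjunctiva, was at 136 and 86.3 in these libraries against 89.7 to 156 at E15.5. Krt6a, a keratin of activated and mucosal epithelium, was at 162 and 79.8 against 60.6 to 206 at E15.5, so P5 WT replicate 2 held 119% of its E15.5 WT mean where it held 22.7% of Krt5. Several of the 18 lie within a few counts of the floor, such as Tmc4 at 53.9 and 55.6. The corneal keratin Krt12 was at the floor in both. Summed skeletal muscle markers were 23255 and 30445 in these libraries, below the 67429 to 78146 of the 3 P5 libraries highest in muscle and above WT replicate 3 at 15482. Summed lens markers were 9993 and 14305. Among the P5 libraries at the floor for the basal keratins they were 11204 and 9930 in cKO replicates 1 and 2. In WT replicates 1 and 3 they were 5589 and 2142. Whether the keratin-bearing libraries differ in how the tissue was taken was not tested.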
